A study of Mus musculus with 5 samples.

Results

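The comparison covers chromosome compartments on the autosomes of mouse hippocampal neuronal nuclei in the states titled Late and Early. Its members are all bins of 50 kb on chromosomes 1 to 19 with a value in every one of the 5 Hi-C libraries of the study. There are 47334 such bins (2366.7 Mb) of 51811 bins listed in any library, and 228 further autosomal bins lacked a value in at least 1 library. The design has 2 biological replicates, of which 1 Early and 2 Late libraries are analysed here, and 2 Basal libraries serve only as a reference that does not enter the Late minus Early difference. All groups came from the cross of ArcCreERT2 with R26R-STOP-floxed eYFP mice, with the genotype given as +/+. In this cross the promoter of Arc, an immediate early gene switched on by neuronal activity, drives a Cre recombinase that works only with tamoxifen, so a fluorescent protein stays on in cells that expressed Arc around the dose. Under the protocol, mice were housed alone in the dark for 24 h, then received 4-hydroxytamoxifen 1 h before contextual fear conditioning, and those kept for later collection went back into the dark for 48 h. Nuclei stained for NeuN and GFP were sorted, and 100000 per group from 2 animals were used. Which gate on GFP each group had is not stated in the labels. All 5 libraries carry 1 treatment label, of a shock and tissue taken on day 0 without recall, whereas the protocol has collections at 1.5 to 2 h and at 5 days. What separates Early from Late is therefore known only from the titles. Neither age nor sex of the animals stands in the labels.

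In Hi-C, stretches of chromatin that lie close together in the nucleus are joined and sequenced. The contact map of a chromosome usually splits into compartment A, which holds open, gene-rich and transcribed chromatin, and compartment B, which holds closed, gene-poor chromatin that often lies at the nuclear lamina. The first principal component (PC1) of the contact map places each bin on this axis, with positive values taken as A and negative values as B. Neurons are known for strongly separated compartments, and long neuronal genes can lie in stretches whose compartment differs between cell types. PC1 has about the same SD on every chromosome of every library (1.00 to 1.01), so it gives the place of a bin relative to its own chromosome and not the strength of compartments. No gene is placed here, because the gene table at hand is on another mouse build than the mm9 coordinates of the files, and for the same reason neuronal identity was not checked against marker genes. Hi-C gives no RNA level for such a check.

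With 1 Early library the smallest p that an exact permutation test of 1 library against 2 can give is 0.333, so no test was made. The yardstick is the difference between the Late replicates. A bin is counted as past the yardstick where both Late libraries lie on the same side of Early, each by more than the 95th percentile of the absolute difference between the Late replicates over all bins. That percentile is 0.51 PC1 units. On chromosome 7 the values of Late replicate 1 were multiplied by -1, since as deposited they correlated with Late replicate 2 at -0.976 and with Early at -0.868.

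Late and Early kept the same broad compartment map and differed by more than the Late replicates did. Across bins, PC1 of Early correlated with Late replicate 1 at a Pearson r of 0.905 and with Late replicate 2 at 0.914, against 0.968 between the Late replicates. Spearman's rho was 0.908, 0.916 and 0.967. The absolute difference from Early had a median of 0.269 for Late replicate 1 and 0.252 for Late replicate 2, against 0.159 between the Late replicates. A difference of over 1 PC1 unit, about 1 SD of a chromosome, was found in 1465 and 1164 bins between Early and the Late libraries and in 41 bins between the Late replicates. Bins in A made up 48.5% of the Early library and 48.0% and 48.3% of the Late libraries.

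The excess over the replicates grew with the length over which PC1 was averaged, up to 5 Mb. In single bins the SD of the difference from Early was 0.437 and 0.414 for the Late replicates, and their own difference had an SD of 0.252. The mean ratio of these SDs was 1.69. With running means over 1 Mb the SDs were 0.333 and 0.278 from Early and 0.121 between the Late replicates, a ratio of 2.52. With running means over 5 Mb the ratio was 2.72, and over 10 Mb it was 2.66. The Basal replicates differed by less than the Late replicates at each of the 7 window sizes, from 0.157 in single bins to 0.0188 over 10 Mb. Late minus Early was also alike over longer distances: between bins 500 kb apart it correlated at 0.457, against 0.138 for the difference of the Late replicates. Between bins 2 Mb apart (2000 kb) the values were 0.227 and 0.0689. Neighbouring bins are not independent, since PC1 was computed in windows of 100 kb.

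**Figure D1:**
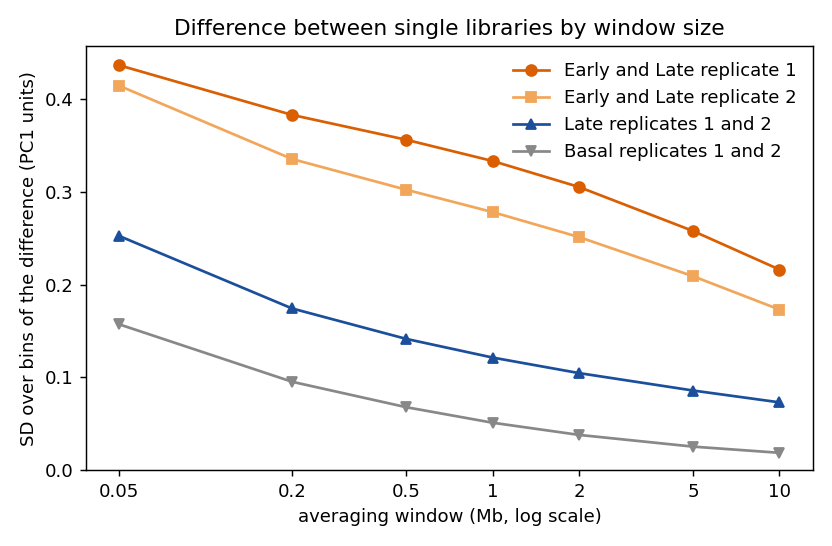
SD over the 47334 autosomal bins of the difference between 2 single libraries (PC1 units, vertical axis) against the length of the running mean (Mb, log axis), with 1 line for each pair of libraries. Both Early lines lie above the line of the Late replicates at every window size, by a mean ratio of 1.69 in single bins and 2.72 at 5 Mb.

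Bins past the yardstick went about equally in both directions. Late was higher, toward A, in 3035 bins (6.41%) and lower, toward B, in 2973 (6.28%), together 12.7% of all bins. The median difference was 0.77 in the higher bins and -0.74 in the lower bins, where the Late replicates differed by medians of 0.14 and 0.13. By the rule each Late library differs from Early by more than 0.51 in these bins. The medians of 0.77 and -0.74 therefore had to lie beyond 0.51. The higher bins formed 1213 regions and the lower bins 1247, merged across a gap of at most 1 bin. Most were short, with a median of 1 bin (50 kb) in each direction, and 38 of the higher and 42 of the lower regions spanned 500 kb or more. Of the higher bins 997 (32.9%) also went from negative in Early to positive in both Late libraries, and 1049 of the lower bins (35.3%) the reverse.

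Bin-to-bin scatter differed among the 3 libraries. Estimated from the 3 differences among Early and the Late libraries, with each bin set against the average of its neighbours 100 kb away in both directions, it came to 0.224 PC1 units for Early, 0.111 for Late replicate 1 and 0.196 for Late replicate 2. In the size of this scatter, Late replicate 2 was thus nearer to Early than to Late replicate 1. A sharp difference particular to 1 library also enters the value of that library. The part of scatter in the counts was not tested. With each library first averaged over 250 kb, which lowers the yardstick too, 4328 bins were higher and 4938 lower in Late. The counts also rest on asking for both Late libraries: with the same yardstick, Late replicate 2 alone gave 4707 higher and 4644 lower bins, and Late replicate 1 alone 5126 and 5207.

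Part of the difference ran over many Mb. The 10 Mb running mean held 22.4% of the variance of Late minus Early over bins, and 8.40% of that of the difference between the Late replicates. Taken chromosome by chromosome, the share for Late minus Early had a median of 14.9%. After the running mean of each library was subtracted per chromosome, the yardstick was 0.48, and Late was higher in 2388 bins (5.04%) and lower in 2224 (4.7%), together 9.74%. Of the bins higher on deposited values, 1798 (59.2%) were also higher with the trend removed, which is 75.3% of the latter. For lower bins the overlap was 1675, or 56.3% and 75.3%. The correlation of Early with the Late libraries on these detrended values was 0.896 and 0.897, against 0.954 between the Late replicates.

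Chromosomes differed widely in how far Late lay from Early. Against 12.7% over all autosomes, 39.0% of bins were past the yardstick on chromosome 19 and 33.7% on chromosome 16. Chromosomes 7 (22.5%), 13 (21.6%) and 15 (18.4%) followed. The lowest shares were 4.29% on chromosome 11 and 6.67% on chromosome 6. These shares use 1 yardstick for all chromosomes, while the SD between the Late replicates ran from 0.206 on chromosome 6 to 0.330 on chromosome 16. Set against each chromosome's own replicate SD, the mean SD from Early was highest on chromosomes 19 (2.65 times), 7 (2.21) and 16 (2.08) and lowest on chromosome 10 (1.40), with a median of 1.62 and 1.66 on chromosome 6. On chromosome 19 Early correlated with the Late libraries at 0.739 and 0.740, while the Late replicates correlated at 0.963. On chromosome 11 these values were 0.955, 0.956 and 0.978.

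The order changed once the slow trend was taken out. On chromosome 19 the 10 Mb running mean held 60.6% of the variance of the difference, on chromosome 16 40.4%, and on chromosome 10 3.26%. With it subtracted, the share past the yardstick was 14.7% on chromosome 19, 20.4% on chromosome 16 and 17.8% on chromosome 13, against 9.74% over all autosomes. Chromosome 18 had 15.8% on deposited values and 16.4% on detrended values. Chromosome 11 stayed lowest, with 3.54%. Against each chromosome's own replicates, the detrended ratio was highest on chromosome 7 (1.84), ahead of chromosomes 13 (1.67) and 16 (1.62), and lowest on chromosome 11 (1.38). On chromosome 19, SDs from Early were 2.65 times the SD between the Late replicates as deposited and 1.54 times with the trend removed.

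**Figure D2:**
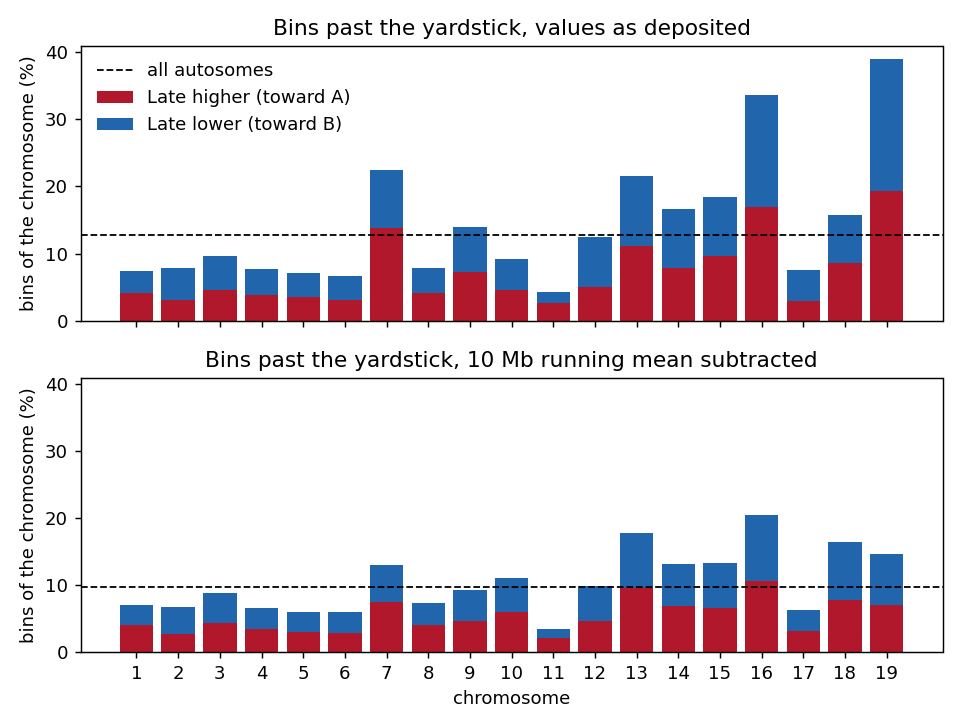
Share of bins past the yardstick (percent of the chromosome's bins, vertical axis) on chromosomes 1 to 19, split into Late higher and Late lower, for values as deposited (top) and with the 10 Mb running mean subtracted (bottom). The dashed line is the share over all autosomes, 12.7% and 9.74%. Chromosome 19 falls from 39.0% to 14.7% between the panels.

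On chromosome 19 the slow difference had opposite directions at the proximal end and past the middle of the chromosome. From 0 to 10 Mb the mean PC1 was 1.03 in Early against 0.40 and 0.28 in the Late libraries. From 10 to 20 Mb it was 0.13 in Early and -0.50 and -0.41 in Late. From 40 to 50 Mb it was -0.61 in Early and 0.42 and 0.38 in Late. Early thus lay above both Late libraries in the first 2 windows and below them in the window from 40 to 50 Mb. The differences were -0.69, -0.58 and 1.01, while the Late replicates differed from each other by at most 0.12. Basal lay with Late there, at 0.36 and 0.40, at -0.48 and -0.47, and at 0.45 and 0.43.

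Chromosome 16 had its main difference from 30 to 40 Mb, where Early was at -0.16 and Late at 0.99 and 0.77. From 50 to 60 Mb the direction was opposite, with Early at -0.020 and Late at -0.50 and -0.37. Late was also below Early from 60 to 80 Mb and from 90 to 100 Mb, with differences of -0.39 and -0.31 and then -0.30 for the mean of the Late libraries. Basal again lay near Late from 30 to 40 Mb, at 0.93 and 0.94. At the proximal end, from 0 to 10 Mb, all 3 stood apart: Basal was at 0.87 and 0.85, Late at 0.28 and 0.26, and Early at 0.0063.

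Over the genome, 39 of 244 windows of 10 Mb with at least 100 bins had a Late minus Early difference beyond 0.221, the highest difference of the Late replicates in any such window. They lay on 14 chromosomes, with 6 each on chromosomes 13 and 16 and 4 each on chromosomes 7 and 19. Late was higher in 18 and lower in 21. In 32 of them (15 higher and 17 lower) Late replicate 2 lay on the Early side of Late replicate 1. Among single bins past the yardstick on deposited values, as in the windows, this was so in 55.8% of the higher and 56.5% of the lower bins. On detrended values it was so in 49.6% and 49.3%. In 27 of the 39 windows the Basal mean was nearer to Late and in 12 nearer to Early. No such count over all 244 windows stands beside these.

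**Figure D3:**
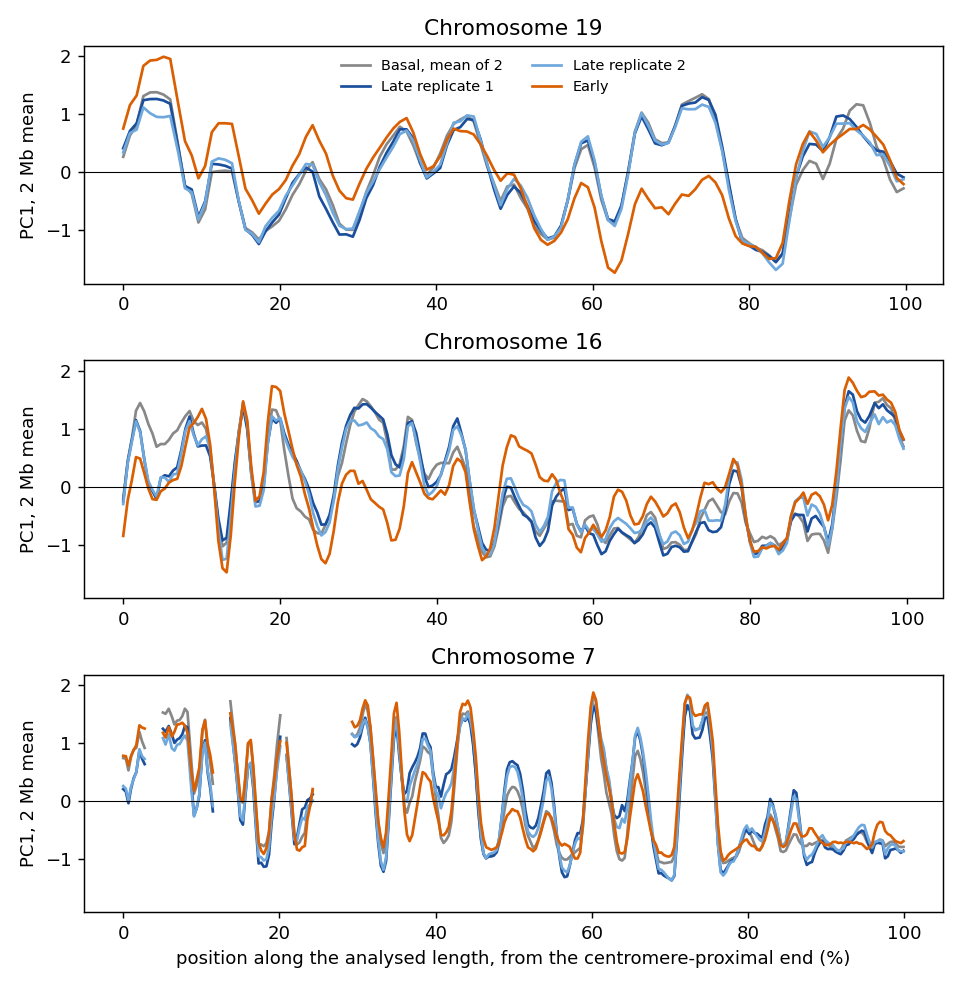
PC1 as a running mean over 2 Mb (vertical axis) along chromosomes 19, 16 and 7, by position as a percentage of the analysed length from the centromere-proximal end, for the Basal mean, Early and both Late libraries. Lines break where bins are missing. On chromosome 19 Early runs above the other libraries near the proximal end and below them past the middle, as the window means above give in values.

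Chromosome 7 showed another arrangement. Of its 2684 bins, 371 were higher and 233 lower in Late past the yardstick, and 262 went from B in Early to A in Late against 63 the reverse. Aligned chromosome medians turned this direction, with 192 higher and 579 lower bins and 149 against 174 switches. Quantile normalization kept it (389 and 205), and with the trend removed there were 201 higher and 147 lower. Bins in A made up 35.8% of chromosome 7 in Early, 45.2% and 44.1% in Late, and 37.9% and 37.5% in Basal. Late was lower than Early from 10 to 30 Mb, at 0.81 and 0.71 against 1.04 in the first 10 Mb of that stretch and at -0.068 and -0.0039 against 0.30 in the second. From 60 to 70 Mb it was higher, at 0.86 and 0.76 against 0.49 in Early, where Basal was at 0.54 and 0.52. These values rest on the sign inversion of Late replicate 1. Late replicate 2, which was not inverted, gave the same directions in these 3 windows.

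The 12 longest regions past the yardstick, 6 in each direction, spanned from 1350 to 5550 kb. Values below are means over the past bins of a region. The longest lay on chromosome 16 from 31600001 to 37150000, where PC1 was -0.43 in Early against 1.02 and 0.73 in the Late libraries, with Basal at 0.98 and 0.97. All 107 of its past bins were lower in Early than in either Late library by the rule, and 69 of them switched from B to A.

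Chromosome 19 held the next 2. From 43500001 to 48000000 Early was at -0.26 and Late at 1.16 and 1.08, and from 40200001 to 43400000 Early was at -0.65 and Late at 0.54 and 0.56. In both the Late replicates lay close to each other and to Basal (1.15 and 1.13, then 0.56 and 0.60), while Early stood alone. With the 10 Mb trend removed the differences shrank, from 1.31 to 0.30 on chromosome 16, from 1.37 to 0.46 at 43.5 Mb on chromosome 19 and from 1.20 to 0.11 at 40.2 Mb. The past bins left were 21 of 107, 29 of 87 and 6 of 61.

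Chromosome 13 from 12250001 to 14200000 differed in this respect. Early was at -1.44 and Late at -0.33 and -0.38, with Basal at -0.38 and -0.44. All 36 of its bins stayed past the yardstick with the trend removed, and the difference was 1.09 before and 1.10 after. Mean PC1 was in B in all 5 libraries and lowest in Early, and 13 of the 36 bins went from B to A.

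The other 2 long rises were on chromosome 7. From 57000001 to 59050000 Early was at -0.68 and Late at 0.57 and 0.36, with Basal between them at 0.054 and -0.0100, and 35 of 39 bins switched from B to A. From 83600001 to 85300000 Early was at -0.23 and Late at 0.62 and 0.51. There Basal, at -0.12 and -0.16, lay beside Early, and all 30 bins switched.

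Of the 6 longest falls, 2 were neighbours on chromosome 16. From 50400001 to 51900000 Early was at 0.63 and Late at -0.51 and -0.39, and from 52150001 to 54650000 Early was at 0.37 and Late at -0.85 and -0.65. Mean PC1 was in A in Early in both, whereas Basal was in B with Late, at -0.50 and -0.57 and at -0.72 and -0.72. In the first stretch 23 of 30 bins and in the second 34 of 48 went from A in Early to B in both Late libraries.

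Chromosome 19 had 2 falls. From 4700001 to 6750000 all libraries were in A, with Early at 1.98 and Late at 1.22 and 0.94. From 17100001 to 18450000 Early was at 0.53 and Late at -0.59 and -0.38. The first difference fell from -0.90 to -0.22 with the trend removed, with 2 of 36 bins still past the yardstick.

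The other 2 falls were on chromosomes 12 and 13. On chromosome 12 from 89500001 to 91200000 Early was at 0.62 and Late at -0.44 and -0.32, with Basal between at 0.21 and 0.20, and 24 of 31 bins switched from A to B. On chromosome 13 from 71900001 to 73400000 Early was at 0.88 and Late near the border, at -0.15 and 0.043. Basal was lower than either state there, at -0.58 and -0.54. In 12 of the 20 regions named by length or by sign, removing the trend lowered the difference by over 1.5 times, and in none did it turn. Most of the runs named by sign lie inside the longest regions, so some stretches count more than once here.

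**Figure D4:**
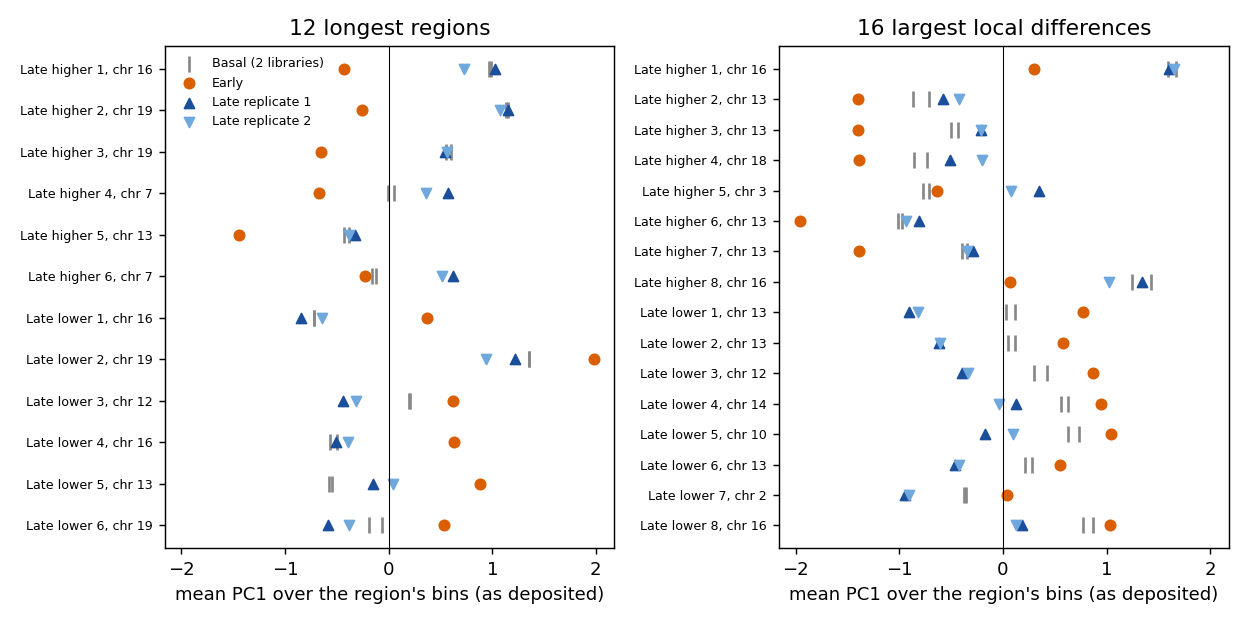
Mean PC1 as deposited (horizontal axis) over the past bins of each region for every library, with 1 row per region named by direction, rank and chromosome. Left, the 12 longest regions. Right, the 16 regions with the largest difference once the 10 Mb running mean is subtracted. Early stands outside the Late pair in each row, which on the left the rule that picked the bins fixes in advance. In the 8 lower rows on the right both Basal libraries lie between Early and Late.

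Local differences were ranked on detrended values among regions of at least 4 past bins, of which there were 127 higher and 121 lower in Late. The 8 largest in each direction are described here. Chromosome 13 held 7 of the 16 and chromosome 16 held 3, and no other chromosome more than 1. All values that follow are as deposited unless said otherwise.

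In 7 of the 8 rises Early stood low and the Basal mean was nearer to Late. On chromosome 16 from 8650001 to 8850000 all libraries were in A, with Early at 0.30 and Late at 1.60 and 1.65, beside Basal at 1.59 and 1.67. On the same chromosome from 10600001 to 10800000 Early was at 0.065 and Late at 1.34 and 1.02. Both stretches are short, with 4 bins each, and the Late replicates were 0.050 and 0.32 apart.

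On chromosome 13 the rises were dips of Early deeper into B. From 66950001 to 67750000 Early was at -1.39 and both Late libraries at -0.21. From 33750001 to 34150000 Early was at -1.96 and Late at -0.81 and -0.94. From 74400001 to 74950000 Early was at -1.40 and Late at -0.58 and -0.42. The fourth was the stretch at 12.25 Mb given above, here 37 bins long. In each of these 4 both Basal libraries lay above Early and below the upper Late library.

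Chromosome 18 from 7450001 to 7700000 had the same form, with Early at -1.39 and Late at -0.51 and -0.20. The exception was chromosome 3 from 115300001 to 115600000, where Early (-0.63) lay beside Basal (-0.71 and -0.78) and both Late libraries were higher, at 0.35 and 0.074. There 4 of 6 bins went from B to A.

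In all 8 falls the Basal mean as deposited was nearer to Early, and both Basal libraries lay between Early and Late. On detrended values, by which the falls were chosen, it was nearer to Late in some. At 9.8 Mb on chromosome 13 it was 0.25, with Early at 1.06 and Late at -0.15 and -0.12. At 11.2 Mb it was 0.47, with Early at 1.08 and Late at 0.045 and 0.12. In the chromosome 16 fall it was 0.28, with Early at 0.84 and Late at -0.12 and -0.11. The other falls stayed nearer to Early. The largest fall was on chromosome 13 from 118350001 to 118550000, with Early at 0.77, Basal at 0.030 and 0.12, and Late at -0.91 and -0.82. Its 4 bins all switched from A to B. Chromosome 13 from 9800001 to 11050000 had Early at 0.58, Basal at 0.052 and 0.12, and Late at -0.61 and -0.60, and 21 of 24 bins switched. From 11200001 to 11750000 Early was at 0.55 and Late at -0.46 and -0.42. These falls lie directly proximal to the rise that starts at 12.25 Mb. Across the 3 neighbouring regions the Early mean went from 0.58 and 0.55 to -1.39, while Late replicate 1 stayed in B at -0.61, -0.46 and -0.29.

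The other falls were on 5 chromosomes. On chromosome 12 from 90150001 to 90850000, inside the long fall given above, Early was at 0.87 and Late at -0.40 and -0.33. On chromosome 10 from 108650001 to 109100000 Early was at 1.05 and Late at -0.17 and 0.10. On chromosome 14 from 119700001 to 120100000 Early was at 0.95 and Late at 0.13 and -0.035. The last 2 pairs of Late values lie on both sides of 0, and 2 of 9 and 2 of 8 bins changed sign in both Late libraries.

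On chromosome 16 from 12000001 to 13050000 Early was at 1.04 and Late at 0.19 and 0.12, mostly within A. On chromosome 2 from 20200001 to 20400000 Early was at the border (0.036) and Late at -0.94 and -0.91. The direction and rank of these regions were fixed by the Late minus Early difference, so they describe its extremes. The Basal values were not used to choose them.

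By sign alone, 1814 bins (3.83%) passed from B in the Early library to A in both Late libraries, and 1954 (4.13%) from A to B. No count of bins whose sign differs between the Late replicates stands beside these. The switches lay near the border, with median PC1 of -0.23 in Early and 0.40 and 0.34 in Late for the first kind, and of 0.21 and -0.39 and -0.32 for the second. Of the first kind 55.0%, and of the second 53.7%, were also past the yardstick. Runs of switched bins reached 500 kb in 14 and 17 places. Basal had the sign of Late in both of its libraries in 957 of the first kind (52.8%) and that of Early in 665 (36.7%). For the second kind these counts were 1152 (59.0%) and 594 (30.4%). No such share over all bins stands beside these counts.

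The longest runs toward A lay on chromosome 7 from 57300001 to 59050000 (35 bins), chromosome 19 from 43650001 to 45000000 (27 bins), chromosome 16 from 33800001 to 34950000 (23 bins) and chromosome 7 from 78350001 to 79400000 (21 bins). The run on chromosome 19 had the widest gap, with Early at -0.43 and Late at 1.10 and 1.09. The run on chromosome 16 had the Late replicates farthest apart, at 1.14 and 0.67, above Early at -0.44. On chromosome 7 at 78.35 Mb Early was at -0.22, Basal at 0.16 and 0.16 and Late at 0.62 and 0.45.

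The longest runs toward B were 2 of 22 bins each on chromosome 16, from 50800001 to 51900000 and from 52400001 to 53500000, with Early at 0.52 and 0.55. Chromosome 6 from 110600001 to 111600000 followed with 20 bins. Early was at 0.26 there, beside Basal at 0.49 and 0.40, and Late was at -0.39 and -0.29. Chromosome 12 from 90250001 to 91200000 had 19 bins, with Early at 0.62 and Late at -0.44 and -0.42.

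Bins were then ranked by their mean Basal PC1, which neither defines nor enters the difference. The share past the yardstick was highest near the border and lowest deep in either compartment. With bins in 10 equal groups, it was 19.04% in the group around a Basal median of 0.058, against 12.7% over all bins, 7.63% in the group deepest in B and 8.56% in the group deepest in A. The SD of Late minus Early was 0.469 in that middle group, where the Late replicate difference had an SD of 0.278, and 0.318 and 0.200 in the deepest B group. The replicates also differed more near the border, with the highest SD of 0.284 in the next group toward A. Within 100 kb of a Basal change of sign, 16.7% of bins were past the yardstick and 20.7% switched, and at 2 Mb (2000 kb) or more from one, 8.29% and 3.16%. Near the border a smaller difference is enough to change the sign. The median absolute Late minus Early was 0.283 within 100 kb and 0.210 at 2 Mb or more. That of the Late replicate difference fell too, from 0.179 to 0.142.

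The direction differed by compartment. In the groups centred on Basal medians of -0.89 and -0.64, Late was more often lower than higher (6.99% against 3.82%, and 8.999% against 5.91%). In the groups centred on 1.26 and 1.62 it was more often higher (8.62% against 3.57%, and 6.36% against 2.20%). Median PC1 in the group at -0.89 was -0.79 for Early, -0.94 for Late replicate 1 and -0.90 for Late replicate 2. In the group at 1.26 it was 1.12, 1.24 and 1.18. In both of these groups Early lay nearer to 0 than either Late library. The deepest B group went the other way, with medians of -1.44, -1.35 and -1.38.

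The excess of higher bins deep in A was found under both scalings tried, and the directions in B under 1 of them, and all of them narrowed with the trend removed except in the deepest B group. With quantile normalization, which gives Early and the Late libraries the same distribution, the group at 1.62 had 5.66% higher and 1.31% lower. The group at -0.89 was then near balance, with 4.44% higher and 4.796% lower, and the deepest B group turned, with 1.90% higher and 2.75% lower against 4.84% and 2.79% as deposited. With chromosome medians and SDs aligned, these B groups had 4.54% and 7.88%, and 7.18% and 2.41%. With the trend removed they had 3.82% and 4.37%, and 5.32% and 1.50%. The group at -0.64 was near balance with quantile normalization (7.37% higher and 7.52% lower) and with the trend removed (5.53% and 5.64%), and kept more lower bins with chromosome medians and SDs aligned (6.02% and 8.98%). The A groups at 1.26 and 1.62 had 4.27% higher and 2.85% lower, and 3.53% and 2.47%, with the trend removed, where the median difference was 0.0035 and -0.020.

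**Figure D5:**
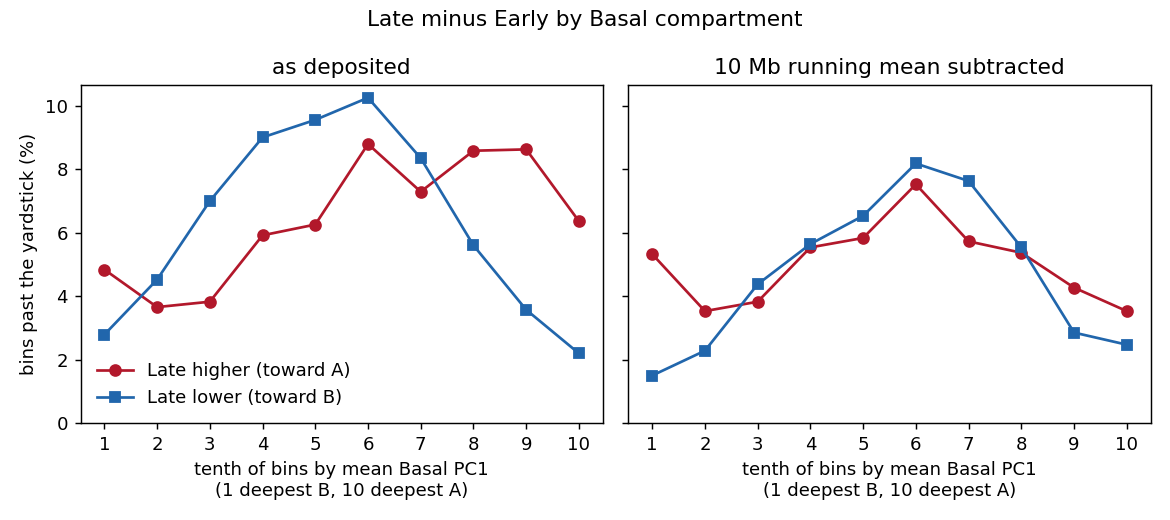
Share of bins past the yardstick (percent, vertical axis) with Late higher and with Late lower, in 10 equal groups of bins from the lowest to the highest mean Basal PC1, for deposited values (left) and with the 10 Mb running mean subtracted (right). On the left the line for Late lower peaks at 10.2% in the sixth group and falls to 2.20% in the last.

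Whole domains were compared through stretches of at least 500 kb with 1 sign in both Basal libraries. Of 951 such domains, 277 (29.1%) had both Late libraries on the same side of Early by more than 0.245, the 95th percentile of the Late replicate difference over domains. Late was higher in 122 and lower in 155. Shorter domains were past this limit more often: 39.9% of those up to 1 Mb (1000 kb), and 13.5% of those over 4 Mb. The limit is the same for all lengths, although means over more bins vary less. With running means over 0.5 Mb and 5 Mb the Late replicates differed by SDs of 0.142 and 0.086. Early differed from them by 0.356 and 0.302, and by 0.258 and 0.209. What this adds to the shares by length was not tested. Of the 416 domains in A 24.5%, and of the 535 in B 32.7%, were past the limit. Mean PC1 changed sign in 50 domains, with 25 going from B in the Early library to A in both Late libraries and 25 the reverse.

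The 4 domains named next were picked among the farthest apart after their values were seen. The A domain on chromosome 19 from 43450001 to 47950000 was at -0.23 in Early, 1.15 and 1.07 in Late and 1.16 and 1.14 in Basal. The A domain on chromosome 16 from 29550001 to 36100000, 131 bins long, was at -0.056 in Early against 1.25 and 1.01 in Late. The B domain on chromosome 13 from 71150001 to 73400000 was at 0.91 in Early, against -0.12 and 0.13 in Late and -0.55 and -0.53 in Basal. The A domain on chromosome 14 from 39500001 to 40300000 stood at 0.25 in Early and at -0.76 and -0.52 in Late, with Basal at 0.59 and 0.54. With the trend removed, the mean difference went from 1.34 to 0.42 in the chromosome 19 domain and from 1.18 to 0.19 in that on chromosome 16. In the domains on chromosomes 13 and 14 it went from -0.90 to -0.67 and from -0.89 to -0.59.

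Basal was used last to describe where each difference lay. Among bins past the yardstick, the Basal mean was nearer to Late in 4092 (68.1%), and this was so for 70.4% of the higher and 65.7% of the lower bins. On detrended values it was 64.6%. These bins were chosen by the distance of the lone Early library from both Late libraries, and no share over all bins stands beside them. What this choice adds was not tested. The scatter of single bins was higher in Early than in either Late library, as given above, and its part in these shares was not tested. The share nearer to Late ran from 42.8% on chromosome 3 and 43.4% on chromosome 7 to 85.0% on chromosome 16, 85.1% on chromosome 15 and 93.8% on chromosome 19. With the trend removed chromosomes 3 (45.5%) and 7 (48.0%) stayed lowest and chromosome 19 (84.8%) highest.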

How the data were processed

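Hi-C was analysed in sorted neuronal nuclei of the mouse hippocampus, from 5 libraries grouped by title. The authors deposited 1 table per library with a signed score, PC1, per 50 kb bin, made with HOMER on mm9, per the submitters' processing notes. Window length (100 kb) is as the file names give it. For versions, aligner, read filters and the setting of signs, nothing is stated in the labels used here. Since no read counts are in the tables, the depth behind a value is unknown and no interval for counting error was computed. PC1 was joined on the bin identifier, and chromosome 7 of Late replicate 1 was inverted. Detrended values subtract each library's own centred 10 Mb running mean per chromosome, shortened at the ends.

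The yardstick rule, merging of bins and alternatives are as given in the text. Regions named were the 6 longest per direction, the 8 largest local differences of at least 4 bins per direction, and the 4 longest switched runs per direction. The members, lists and rules were chosen with earlier results of these data known. Scripts were tested on simulated data. Coordinates are 1-based. The labels describe biological replicates, but do not say which animals each library came from. Python 3.11.15, numpy 2.4.6, pandas 2.3.3 and matplotlib 3.10.9 were used.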

Additional observations from a re-analysis of the deposited data

How the results depend on the processing

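No paired analysis was possible because Early has 1 library, so Early and Late share fewer than 2 replicate numbers. All 36 named regions, some of which overlap, kept their direction under each alternative run on them (212 values). Leaving out chromosome 7 could change nothing in regions on other chromosomes, since the values and trend of a region come from its own chromosome. Leaving out 1 Late library could not turn a region, since its bins already had both Late libraries on the same side of Early. The regions were also picked for this difference, so their direction is not an independent check. The counts moved most with the yardstick. At the 99th percentile, 1314 bins were higher and 1099 lower in Late as deposited, and 868 and 709 detrended. With the Basal replicates as yardstick the counts were 6461 and 6610, and 5266 and 5105. With a 250 kb mean 4938 bins were lower as deposited, 3883 higher and 3904 lower detrended, and the SD ratios were 2.06 and 1.84. With 1 Late library left out, higher bins numbered 4707 to 5126 and lower bins 4644 to 5207 as deposited, and 4155 to 4247 and 4024 to 4046 detrended, since 1 condition fewer is asked. The detrended SD ratio of 1.53 was 1.49 with quantile normalization, 1.51 without chromosome 7, 1.45 with a 5 Mb and 1.60 with a 20 Mb window. Requiring every library past 0 by 0.1 left 1054 switches to A and 1106 to B. Of 10 equal groups of bins by Basal PC1, the fifth and the sixth exceeded the first and the last by 9.33 percentage points past the yardstick, by 12.5 with quantile normalization and by 5.77 with chromosome medians and SDs aligned, both chosen after seeing the data. The cause of these shifts was not tested. Without chromosome 7 the deposited counts were 2622 and 2681. The lone Early library and the unknown depth limit all of these values.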

Other observations

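The ends of chromosomes were described by distance from the first and last analysed bin. From 5 to 10 Mb of the centromere-proximal end, mean PC1 was -0.069 in Early against -0.22 and -0.18 in Late, and the mean of Late was lower on 15 of 19 chromosomes. From 1 to 5 Mb of the distal end it was 0.53 in Early and 0.43 and 0.41 in Late, lower on 14 of 19 chromosomes. In the outermost 1 Mb, 21.2% of bins at the proximal and 18.7% at the distal end were past the yardstick, against 12.7% over all autosomes. From 1 to 5 Mb and from 5 to 10 Mb the shares were 16.3% and 16.8% at the proximal end. At the distal end they were 12.1% and 11.4%. Mean differences in the outermost 1 Mb were 0.058 (Late higher on 12 of 19 chromosomes) and 0.021 (higher on 10). Late replicate 1 minus Late replicate 2 was -0.027 and 0.026 there, so the distal difference did not exceed that of the replicates. The other distances gave mean differences of -0.023 from 1 to 5 Mb (lower on 11 chromosomes) and -0.067 from 10 to 20 Mb (lower on 12) at the proximal end. At the distal end they gave -0.039 from 5 to 10 Mb (lower on 12) and 0.064 from 10 to 20 Mb (higher on 12). The Late replicates differed by -0.0085 and -0.025 at these proximal distances and by 0.027 and 0.027 at the distal ones.

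Borders between compartments were compared after a 250 kb mean. Late replicate 1 had 1084 borders, Late replicate 2 1300 and Early 1324. Of the borders of Late replicate 1, 81.7% lay within 100 kb of one in Late replicate 2 and 54.3% within 100 kb of one in Early. Of the borders of Late replicate 2, 910 had a partner in Late replicate 1 and 748 (57.5%) in Early. Of the Early borders, 45.0% had one in Late replicate 1 and 56.2% in Late replicate 2.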
